A study of Homo sapiens with 12 samples.

Results

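The serine/threonine phosphatase PP6 is built from 7 gene products, and all 7 were measured among the 12756 genes compared here. The members were taken by name from the list of known PP6 subunits: the catalytic subunit PPP6C, the SAPS-domain subunits PPP6R1, PPP6R2 and PPP6R3, and the ankyrin-repeat subunits ANKRD28, ANKRD44 and ANKRD52. Their RNA was followed in HCT116, a widely used line derived from a human colorectal carcinoma, across 4 groups of 3 polyA RNA libraries: the parental line, a knockout of AGO2, a knockout of ANKRD52, and a double knockout of ANKRD52 and CSNK1A1. All cells were collected 48 hours after seeding, and the labels name no other treatment. The labels do not say whether a knockout was 1 clone or a pool, or whether replicates were separate cultures, so the p-values reflect no more than library-to-library variation that may be technical in origin. Because each library is bulk RNA, fewer cells of a type and less RNA per cell cannot be told apart.

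PP6 belongs to the PP2A-like phosphatases, together with PP2A and PP4. A holoenzyme holds the catalytic subunit, a SAPS-domain subunit that binds it directly, and an ankyrin-repeat subunit that joins through the SAPS subunit, so that the choice of regulatory subunits helps set which substrates are reached. PP6 removes activating phosphates from the mitotic kinase Aurora A, and with ANKRD52 it removes phosphates that casein kinase 1 alpha, the product of CSNK1A1, places on AGO2, an Argonaute protein that binds microRNAs and silences the messages they pair with.

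The values are log2 fold changes of each knockout over the parental line, as the authors deposited them, with no value for a single library. The approximate standard error beside a value was rebuilt from the deposited likelihood ratio, and a gene was called changed at an edgeR adjusted p under 0.05. Library depth is unknown. CSNK1A1 RNA fell by 2.42 in the double knockout and AGO2 RNA fell by 1.07 in the AGO2 knockout in the authors' deposited tables (edgeR adjusted p = 1.71e-10 and 0.0477). ANKRD52 RNA was not lower in the ANKRD52 knockout, as described with the ankyrin subunits, so the RNA level gave no check of that label. The epithelial markers EPCAM, KRT8, KRT18 and CDH1 had mean log2 CPM of 8.28, 11.18, 9.88 and 7.10 in the authors' deposited tables. Of 6 markers of other cell types, COL1A1 (3.67), LYZ (1.21) and VWF (0.11) were measured, by mean log2 CPM in the authors' deposited tables, and PTPRC, CD3E and PECAM1 were not among the genes tested. LYZ and VWF were called higher in the double knockout (edgeR adjusted p = 1.27e-12 and 1.61e-11) and COL1A1 was not (0.281), in the authors' deposited table. No fold is given for LYZ because its implied parental level is near 0, and the rise of VWF, log2 2.25, is also from a low level. Of the 4 epithelial markers 3 (KRT8, KRT18 and CDH1) were higher in the double knockout, and EPCAM was not called (edgeR adjusted p = 0.596). In the ANKRD52 knockout 2 of the 4 (EPCAM and CDH1) were lower, and KRT8 and KRT18 were not called (edgeR adjusted p = 0.841 and 0.862). Of all genes 43.0% were called in the double knockout and 13.7% in the ANKRD52 knockout, in the authors' deposited tables. The part of these markers in the subunit values was not tested.

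In each knockout 2 of the 7 subunits passed the test, but not the same subunits. ANKRD52 and PPP6C were higher in the AGO2 knockout, where 6.10% of all genes were called in the authors' deposited table (3.38% higher, 2.72% lower). ANKRD44 and PPP6C were higher in the ANKRD52 knockout, where 13.7% of all genes were called in the authors' deposited table (7.62% higher, 6.04% lower). ANKRD52 and PPP6R2 were lower in the double knockout, where 43.0% of all genes were called in the authors' deposited table (22.9% higher, 20.1% lower). ANKRD52 is itself a targeted gene in that knockout. The median log2 fold change of the 7 subunits was 0.08 in the AGO2 knockout, 0.02 with ANKRD52 knocked out and -0.16 in the double knockout, from the authors' deposited tables. The 3 comparisons share the parental libraries. PPP6R1, PPP6R3 and ANKRD28 were called in none of the 3 comparisons by edgeR, and also at an unadjusted p of 0.05 they passed in none.

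**Figure D1:**
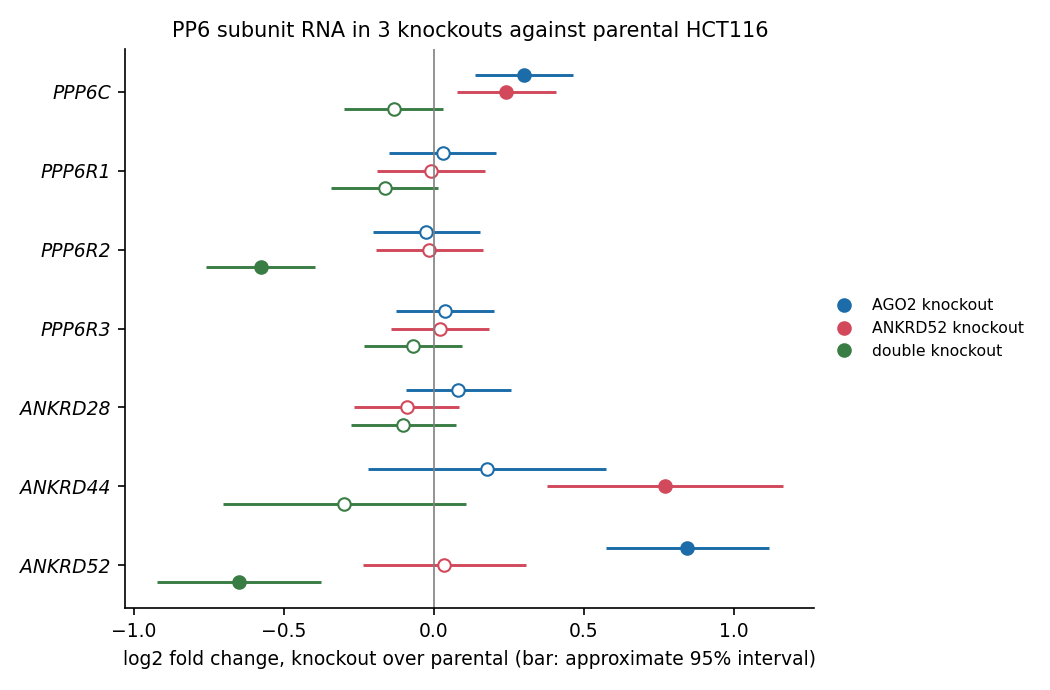
Log2 fold change of each PP6 subunit (vertical axis) in the AGO2, ANKRD52 and double knockouts over parental HCT116 cells (horizontal axis), with approximate 95% intervals as bars, filled points where the edgeR adjusted p was under 0.05 and open points elsewhere. ANKRD52 lies at 0.85 in the AGO2 knockout and at -0.65 in the double knockout, while PPP6R1, PPP6R3 and ANKRD28 stay near 0 in all 3.

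A level in each group was derived from the mean CPM (normalised counts) of all libraries and the 3 fold changes, taking the 4 groups as equal in size. They have no error of their own and are given per kilobase of the principal transcript so that genes can be compared. Values per kb, and shares built on them, therefore depend on which transcript was taken for each gene. In the parental cells PPP6R3 had 55.4 implied CPM per kb, PPP6R1 46.5, PPP6C 21.8, ANKRD52 17.9, PPP6R2 15.9, ANKRD28 10.3 and ANKRD44 1.06. Among the SAPS subunits PPP6R3 made up 47.0% of the summed parental level per kb, PPP6R1 39.5% and PPP6R2 13.5%. Among the ankyrin subunits ANKRD52 made up 61.0%, ANKRD28 35.3% and ANKRD44 3.63% in the parental cells. ANKRD52 was thus the most abundant ankyrin subunit RNA and ANKRD44 the least, and that order held in all 4 groups. No spread between libraries was available to say which neighbours in these orders differ.

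The make-up of the ankyrin RNAs shifted between groups. ANKRD52, itself a targeted gene in the ANKRD52 and double knockouts, held 72.6% of their summed implied level per kb in the AGO2 knockout. It held 61.3% with ANKRD52 knocked out and 52.0% in the double knockout. ANKRD28 held 24.7%, 32.6% and 44.1% in the same order, although its own fold change was not called in any of them. The sum over the ankyrin subunits was 29.3 implied CPM per kb in parental cells, 44.3 in the AGO2 knockout, 29.9 with ANKRD52 knocked out and 21.9 in the double knockout. The SAPS subunits together had 117.8, 119.9, 118.2 and 104.9 implied CPM per kb in these 4 groups. The share of PPP6R2 among them was 13.5% in the parental cells and 10.1% in the double knockout.

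**Figure D2:**
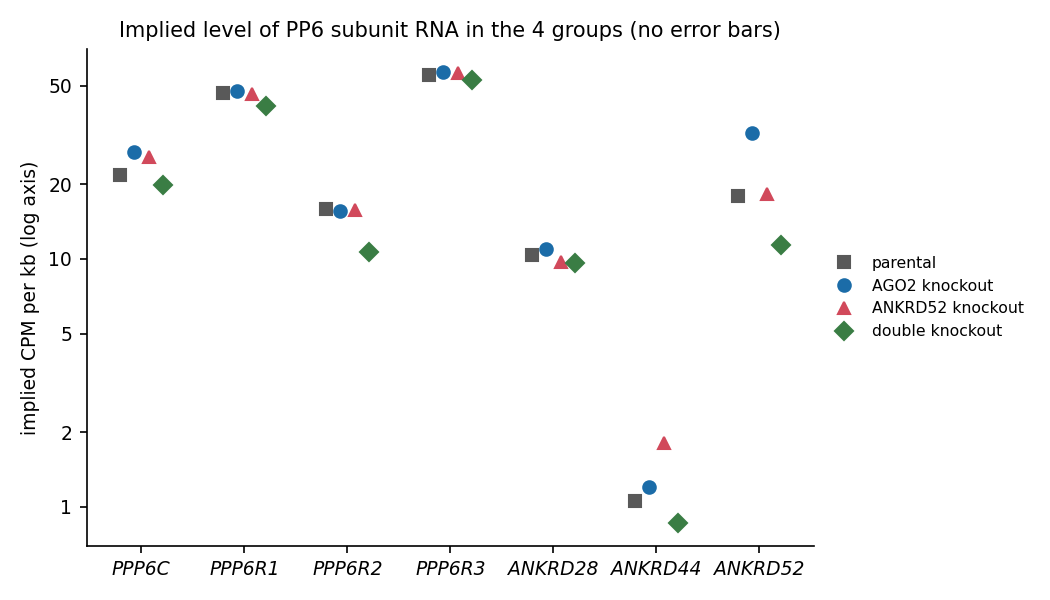
Implied level of each PP6 subunit RNA (horizontal axis) in the 4 groups, in CPM per kilobase of the principal transcript on a log axis, with no error bars because no value of a single library was used. PPP6R3 and PPP6R1 are the highest and ANKRD44 the lowest in every group, and ANKRD52 spans 11.4 in the double knockout to 32.2 in the AGO2 knockout.

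The catalytic subunit PPP6C (ENSG00000119414.11) lies on the minus strand of chromosome 9 at chr9:125146573-125189939 in GRCh38. Its implied level was 89.9 CPM in the parental cells, 110.8 in the AGO2 knockout, 106.3 with ANKRD52 knocked out and 81.9 in the double knockout. PPP6C was thus higher than parental in both single knockouts and not in the double. It rose 1.23-fold in the AGO2 knockout (log2 0.30, approximate SE 0.0835, edgeR adjusted p = 0.0127) in the authors' deposited table. The rise in the ANKRD52 knockout was 1.18-fold (log2 0.24, approximate SE 0.0835, edgeR adjusted p = 0.0324) in the authors' deposited table. Its log2 fold change in the double knockout was -0.13 with an approximate 95% interval of -0.30 to 0.03 (edgeR adjusted p = 0.189) in the authors' deposited table. Among 2056 genes of like expression, meaning within 0.5 log2 CPM, 91.6% lay below PPP6C in the AGO2 knockout and 83.9% in the ANKRD52 knockout. Both calls were lost at an adjusted p of 0.01 and when the likelihood ratio was read against an F distribution (adjusted p = 0.282 and 0.174). Over all genes that distribution called 0 in the AGO2 knockout (1834 at an unadjusted p under 0.05) and 3 in the ANKRD52 knockout, where edgeR's likelihood ratio test called 778 and 1742.

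Of the SAPS subunits, PPP6R2 fell in the double knockout and the other two were not called anywhere. PPP6R2 (ENSG00000100239.15, plus strand, chr22:50343304-50445090 in GRCh38) had an implied 52.3 CPM in parental cells, 51.4 in the AGO2 knockout, 51.8 with ANKRD52 knocked out and 35.0 in the double knockout. The first 3 groups lie within 1 CPM of each other and the double knockout lies apart. PPP6R2 fell to 0.670 of the parental level in the double knockout (log2 -0.58, approximate SE 0.0928, edgeR adjusted p = 7.79e-09) in the authors' deposited table. Its log2 fold changes in the single knockouts were -0.02 and -0.02, with approximate intervals of -0.20 to 0.15 and -0.19 to 0.16, from the authors' deposited tables. In the double knockout 5.35% of the 2522 genes of like expression lay below it. The 20 measured genes nearest to PPP6R2 on chromosome 22, 10 on each side, were chosen after the fold changes were seen. Their median was -0.34 in the double knockout, with 10 lower and 1 higher. The 20 nearest to PPP6R1, which was not called, had the same median there, -0.34, with 10 lower and 3 higher. Of all genes 20.1% were lower and 22.9% higher in that knockout. The part of its neighbours in the fall of PPP6R2 was not tested.

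PPP6R1 and PPP6R3 had the most abundant RNA of the SAPS subunits. The log2 fold change of PPP6R1 was 0.03 in the AGO2 knockout, -0.01 with ANKRD52 knocked out and -0.16 in the double knockout (edgeR adjusted p = 0.893, 0.969 and 0.136) in the authors' deposited tables. The approximate interval of the last value ran from -0.34 to 0.02. For PPP6R3 the values were 0.04, 0.02 and -0.07 (edgeR adjusted p = 0.840, 0.909 and 0.514) in the authors' deposited tables. The exons of PPP6R1 overlap those of AC010327.5 on the same strand and those of PPP6R3 overlap AP003096.1 on the opposite strand, and whether counting used strand is not given in the sources used here.

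ANKRD52 (ENSG00000139645.9, minus strand, chr12:56237807-56258391 in GRCh38) varied most among the subunits. Its implied level was 155.4 CPM in parental cells, 279.4 in the AGO2 knockout, 159.2 with ANKRD52 knocked out and 98.9 in the double knockout. The cells labelled ANKRD52 knockout therefore sat at the parental level, the AGO2 knockout above it and the double knockout below it. ANKRD52 rose 1.80-fold in the AGO2 knockout (log2 0.85, approximate SE 0.139, edgeR adjusted p = 8.78e-07) in the authors' deposited table. By p it ranked 18 of 12756 genes there. Of 1241 genes of like expression, 99.8% lay below it in that knockout. In the ANKRD52 knockout its log2 fold change was 0.03, with an approximate interval of -0.24 to 0.31 (edgeR adjusted p = 0.915), in the authors' deposited table. In the double knockout ANKRD52 fell to 0.637 of parental (log2 -0.65, approximate SE 0.139, edgeR adjusted p = 2.32e-05) in the authors' deposited table. There 4.51% of the 1241 genes of like expression lay below ANKRD52. With an F distribution the rise in the AGO2 knockout was not called (adjusted p = 0.208, unadjusted p = 0.000298), while the fall in the double knockout was (adjusted p = 0.0123). Its 20 measured neighbours had a median log2 fold change of 0.03 in the AGO2 knockout, with 1 lower. In the double knockout their median was -0.17, with 8 lower and 1 higher, where 20.1% of all genes were lower and 22.9% higher. ANKRD52 exons overlap those of SLC39A5 on the opposite strand.

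ANKRD44 (ENSG00000065413.19, minus strand, chr2:196967017-197311173 in GRCh38) is the scarcest of the subunits. Its implied level was 5.47 CPM in parental cells, 6.19 in the AGO2 knockout, 9.34 with ANKRD52 knocked out and 4.45 in the double knockout. ANKRD44 rose 1.71-fold in the ANKRD52 knockout (log2 0.77, approximate SE 0.200, edgeR adjusted p = 0.00284) in the authors' deposited table. The values in the AGO2 and double knockouts, 0.18 and -0.30, were not called (edgeR adjusted p = 0.664 and 0.241) in the authors' deposited tables. In the ANKRD52 knockout 96.3% of 1039 genes of like expression lay below it, and with an F distribution the call was lost (adjusted p = 0.118). ANKRD28 (ENSG00000206560.11, minus strand, chr3:15667236-15859771 in GRCh38) was not called in any comparison, with log2 fold changes of 0.08, -0.09 and -0.10 (edgeR adjusted p = 0.643, 0.564 and 0.370) in the authors' deposited tables.

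**Figure D3:**
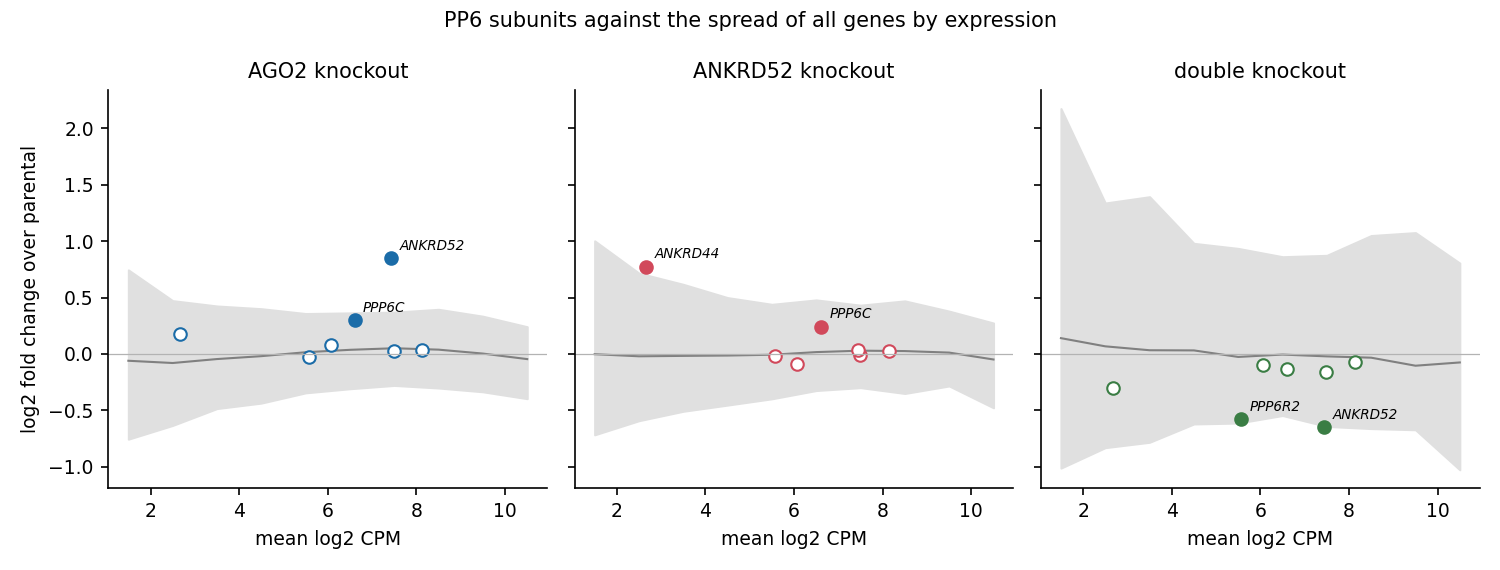
Log2 fold change over parental (vertical axis) against mean log2 CPM (horizontal axis) of the 7 subunits in each knockout, with the median of all genes as a grey line, their 5th to 95th percentile as a grey band, and filled, named points for called subunits. ANKRD52 lies above the band in the AGO2 knockout and just below it in the double knockout, and ANKRD44 lies above it in the ANKRD52 knockout.

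The knockouts were next set against each other. One log2 fold change was subtracted from the other, which removes the parental level, and the approximate normal test was adjusted over 11876 genes, all at or above 1 mean log2 CPM. Between the double and the ANKRD52 knockout, which share the ANKRD52 label, 4 of 7 subunits were lower in the double. Of all genes 34.5% differed in either direction, and the share that was lower was not counted. ANKRD44 was lower by a difference of -1.07 (approximate 95% interval -1.47 to -0.67, adjusted p = 1.85e-06), which is 0.476 of its level in the ANKRD52 knockout. ANKRD52 differed by -0.69 (-0.96 to -0.41, adjusted p = 8.93e-06), PPP6R2 by -0.56 (-0.74 to -0.38, adjusted p = 1.85e-08) and PPP6C by -0.38 (-0.54 to -0.21, adjusted p = 6.13e-05). For ANKRD28 the difference was -0.01 with an interval of -0.19 to 0.16. The double knockout was thus lower for the catalytic subunit, 1 SAPS subunit and 2 ankyrin subunits. Of these, ANKRD52 is a targeted gene in both groups compared.

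Between the ANKRD52 and AGO2 knockouts 2 subunits differed, among them the targeted gene ANKRD52, where 9.43% of all genes did. ANKRD52 was lower in the ANKRD52 knockout by -0.81 (approximate interval -1.08 to -0.54, adjusted p = 1.41e-06) and ANKRD44 was higher by 0.59 (0.20 to 0.99, adjusted p = 0.0386). PPP6C did not pass, with a difference of -0.06 and an interval of -0.22 to 0.10 (adjusted p = 0.729). With a t distribution of 8 degrees of freedom neither difference passed (adjusted p = 0.0987 for ANKRD52 and 0.222 for ANKRD44). Between the double and AGO2 knockouts 4 subunits were lower in the double, among them the targeted gene ANKRD52, where 42.6% of all genes differed in either direction. ANKRD52 differed by -1.50 (-1.77 to -1.22, adjusted p = 6.37e-25), PPP6R2 by -0.55 (adjusted p = 2.83e-08), ANKRD44 by -0.48 (adjusted p = 0.0472) and PPP6C by -0.44 (adjusted p = 1.99e-06). The difference of ANKRD44 did not pass with the t distribution (adjusted p = 0.115). PPP6R1 and ANKRD28 differed by -0.19 and -0.18 and did not pass (normal test, adjusted p = 0.0740 and 0.0834). Their approximate intervals, -0.37 to -0.01 and -0.36 to -0.009, lay below 0.

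**Figure D4:**
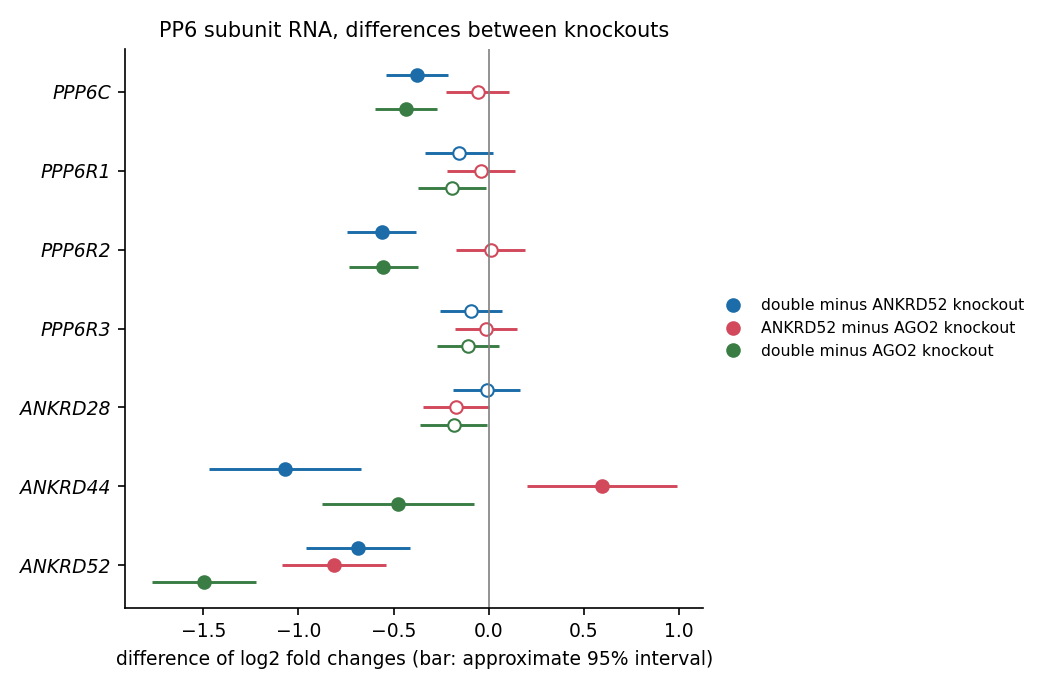
Difference of log2 fold changes between pairs of knockouts (horizontal axis) for each PP6 subunit (vertical axis), with approximate 95% intervals as bars and filled points where the adjusted p was under 0.05. ANKRD52 differs most, by -1.50 between the double and AGO2 knockouts, and ANKRD28 is open in all 3 pairs.

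Because AGO2 acts through microRNAs, which pair by bases 2 to 8, the seed, with 3' UTRs, the 3' UTRs of the subunits' principal transcripts were searched on the mRNA strand for the exact complement of 12 microRNA seeds. The 3' UTR of ANKRD52 is 5335 bases long, longer than 94.1% of those of the measured genes, and that of PPP6C is 3100 bases. ANKRD52 held 12 matches from 6 of the 12 families, against a median of 7 in 779 UTRs of like length (0.8 to 1.25 times as long). PPP6C held 5 matches, against a median of 4 in 1536 UTRs of like length. Subunits that were called nowhere also lay above the median of like-length UTRs, PPP6R3 with 7 matches against 3, ANKRD28 with 6 against 4 and PPP6R1 with 2 against 1. ANKRD44 held 3 against a median of 3, and PPP6R2 held 1 against 0. Per kb of 3' UTR, PPP6R2 held 7.87 matches, from 1 match in a 3' UTR of only 127 bases. PPP6R3 held 3.16 per kb, PPP6R1 2.67, ANKRD52 2.25, ANKRD28 1.98, PPP6C 1.61 and ANKRD44 1.43. The PPP6R3 miR-15 matches at 3' UTR bases 12 to 18 and 15 to 21 overlap and were each counted. The motifs were CTACCTC (let-7), GCACTTT (miR-17), TTTGCAC (miR-19), CAGTATT (miR-200b), CAGTGTT (miR-141), TGCTGCT (miR-15), ATAAGCT (miR-21), TACTTGA (miR-26), ACTGTGA (miR-27), TGGTGCT (miR-29), TGTTTAC (miR-30) and GTGCAAT (miR-25). Over all measured UTRs, GCACTTT was present in 23.4%, TGGTGCT in 15.8% and CTACCTC in 10.4%. A match is a description of the letters and not evidence of binding.

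**Figure D5:**
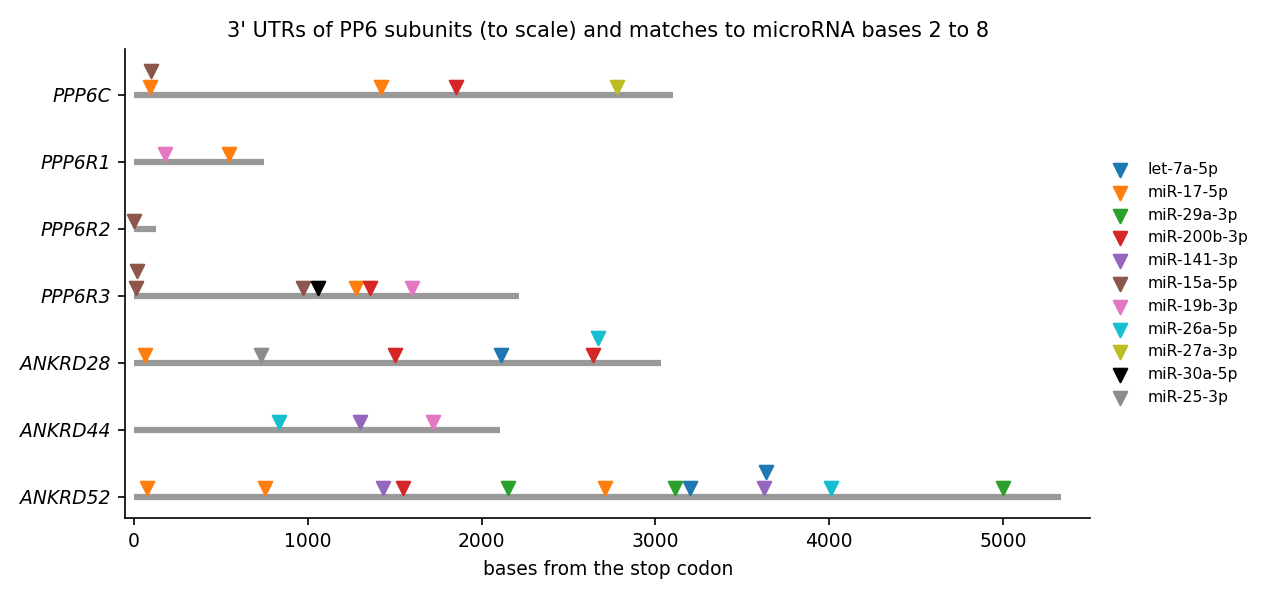
The 3' UTR of each PP6 subunit drawn to scale as a grey line (horizontal axis, bases from the stop codon), with triangles at matches to bases 2 to 8 of the microRNA families, raised where they lie close together. ANKRD52 has the longest 3' UTR, 5335 bases, and the most matches, 12.

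The 4 microRNAs with more than 1 match in ANKRD52 are shown with the seed in capitals, from RefSeq (GRCh38.p14), 5′ to 3′, and below them stand their sites in the 3' UTRs of ANKRD52 and PPP6C, the subunits higher in the AGO2 knockout, from GENCODE release 29 (GRCh38), minus strand, with the match in capitals. ANKRD52 held 3 matches for miR-17, a motif found at least once in 58.4% of like-length UTRs, 3 for miR-29a (39.4%), 2 for let-7 (27.6%) and 2 for miR-141 (53.7%). PPP6C held 2 for miR-17 (41.1%). The share of like-length UTRs with as many matches was not counted. The miR-17 and miR-15 matches of PPP6C overlap by 1 base.
hsa-miR-17-5p: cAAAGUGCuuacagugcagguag
hsa-miR-29a-3p: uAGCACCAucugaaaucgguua
hsa-let-7a-5p: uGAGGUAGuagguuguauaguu
hsa-miR-141-3p: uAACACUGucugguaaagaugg
ANKRD52, miR-17 site at chr12:56243058-56243079: tctaaacatttaggGCACTTTa
ANKRD52, miR-17 site at chr12:56242382-56242403: tggcccctaaccacGCACTTTa
ANKRD52, miR-17 site at chr12:56240428-56240449: gcttcaagtaataaGCACTTTt
ANKRD52, miR-29 site at chr12:56240982-56241003: cctccctctcatctTGGTGCTg
ANKRD52, miR-29 site at chr12:56240021-56240042: cttctccttttgttTGGTGCTg
ANKRD52, miR-29 site at chr12:56238135-56238156: cccggaaccacctgTGGTGCTa
ANKRD52, let-7 site at chr12:56239934-56239955: gggctgaggagggcCTACCTCc
ANKRD52, let-7 site at chr12:56239499-56239520: ccagtgttcatcccCTACCTCc
ANKRD52, miR-141 site at chr12:56241700-56241721: ccactcctgcagccCAGTGTTc
ANKRD52, miR-141 site at chr12:56239512-56239533: ccacttcccataccCAGTGTTc
PPP6C, miR-17 site at chr9:125149577-125149598: atactttttattgaGCACTTTg
PPP6C, miR-17 site at chr9:125148247-125148268: agccaattaataaaGCACTTTa

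The genes nearest to a subunit over the 3 log2 fold changes were named by Euclidean distance. Nearest to PPP6C lay INTS6 (distance 0.0287), E2F5 (0.0424) and OIP5-AS1 (0.0431). Nearest to PPP6R2 lay RNF135 (0.0272), SERF2 (0.0421) and SLC27A3 (0.0444). ANKRD44 had ARSJ (0.0707), ID3 (0.163) and ANKRD34A (0.178) as its nearest genes. Nearest to ANKRD52 was STAMBPL1 at 0.147, with log2 fold changes of 0.85, 0.14 and -0.75 in the authors' deposited tables, then HOXA3 (0.157).

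The sister phosphatases were described for comparison. Of 7 measured PP4 subunits none was called in the AGO2 knockout by edgeR (1 at an unadjusted p under 0.05). In the ANKRD52 knockout 1 was lower, and in the double 2 were higher and 1 lower, in the authors' deposited tables. These are 0%, 14.3% and 42.9% of the 7, against 6.10%, 13.7% and 43.0% of all genes. The median log2 fold changes of the PP4 subunits were 0.08, 0.09 and 0.06 in the authors' deposited tables. The PP4 catalytic subunit PPP4C fell by 0.23 with ANKRD52 knocked out and by 0.24 in the double (edgeR adjusted p = 0.0367 and 0.0121) in the authors' deposited tables, while PPP6C rose in the first and was not called in the second. In the authors' deposited table for the double knockout, the PP4 subunit genes PPP4R2 and SMEK1 rose by 0.33 and 0.40 (edgeR adjusted p = 0.00823 and 0.000138). PPP4R4 was not called (smallest edgeR adjusted p = 0.0517 over the authors' deposited tables). Of 17 measured PP2A subunits 1 was higher in the AGO2 knockout, 3 were higher and 1 lower in the ANKRD52 knockout, and 5 were higher and 3 lower in the double knockout, in the authors' deposited tables. These are 5.88%, 23.5% and 47.1% of the 17, against 6.10%, 13.7% and 43.0% of all genes. The PP2A catalytic subunit PPP2CA had log2 fold changes of 0.06, 0.08 and 0.03 (edgeR adjusted p = 0.747, 0.577 and 0.802) in the authors' deposited tables. The scaffold subunit PPP2R1B rose in all 3, by log2 0.51, 0.66 and 0.67 (edgeR adjusted p = 0.00318, 1.09e-05 and 9.01e-07), while the scaffold PPP2R1A fell by 0.54 in the double (edgeR adjusted p = 2.34e-09), in the authors' deposited tables. The regulatory subunit PPP2R5A rose by 0.44 with ANKRD52 knocked out and fell by 0.96 in the double (edgeR adjusted p = 0.0102 and 8.19e-12) in the authors' deposited tables. In the authors' deposited table for the double, PPP2R5D, of the same subunit family, fell by 0.31 (edgeR adjusted p = 0.000779).

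Of 12 measured substrates and partners of PP6, 1 was lower in each single knockout, and 1 was higher and 2 lower in the double, in the authors' deposited tables. The gene lower in the AGO2 knockout was AGO2, the targeted gene itself. These counts are 8.33%, 8.33% and 25.0% of the list, against 6.10%, 13.7% and 43.0% of all genes. Aurora A, the product of AURKA, had RNA that fell by 0.37 in the double knockout (edgeR adjusted p = 0.000354), and the condensin subunit gene NCAPG fell by 0.26 (edgeR adjusted p = 0.00663), in the authors' deposited table. The adhesion gene CDH1 fell by 1.33 with ANKRD52 knocked out and rose by 1.45 in the double (edgeR adjusted p = 0.0195 and 0.00251) in the authors' deposited tables. Among 5 measured regulators shared by these phosphatases, only PPP2R4, which helps activate PP2A, was called. PPP2R4 fell by 0.45 in the double knockout (edgeR adjusted p = 0.000320) in the authors' deposited table. This is 1 of 5 regulators, in a knockout where 43.0% of all genes were called. The 35 other ANKRD-named genes were listed by symbol, are not PP6 subunits and include pseudogenes such as ANKRD18DP. Among them 2 were higher and 3 lower in the AGO2 knockout, 3 and 4 in the ANKRD52 knockout and 8 and 9 in the double, in the authors' deposited tables. These sum to 5, 7 and 17 of the 35, the last being 48.6%, against 6.10%, 13.7% and 43.0% of all genes. ANKRD37 fell in all 3 knockouts, with log2 fold changes of -1.69, -2.00 and -1.15 (edgeR adjusted p = 0.0101, 0.000606 and 0.0269) in the authors' deposited tables. ANKRD29 fell by 1.08 with ANKRD52 knocked out and fell by 1.92 in the double (edgeR adjusted p = 4.25e-05 and 5.62e-15) in the authors' deposited tables. ANKRD11, which encodes a chromatin regulator, rose by 0.44 in the double knockout (edgeR adjusted p = 4.57e-05) in the authors' deposited table. ANKRD1 was called higher in the ANKRD52 and double knockouts (edgeR adjusted p = 0.00724 and 3.62e-07) in the authors' deposited tables, and no fold is given because its implied parental level is near 0.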

How the data were processed

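Stranded libraries of polyA RNA from 12 HCT116 samples were sequenced, per the labels' protocols, using a 75 cycle kit. Tools listed in the submitters' processing notes, with no role given, were edgeR 3.8.6, featureCounts 1.4.6 and TopHat2 2.0.12, with genome build hg19. The authors deposited 3 edgeR tables, each a knockout against parental, with columns of deposited log2 fold change and log2 CPM, a deposited likelihood ratio score, and deposited p-values. Each deposited p-value was found to equal a chi-square tail with 1 degree of freedom, adjusted by Benjamini-Hochberg over 12756 genes.

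An approximate standard error was obtained by dividing the size of a log2 fold change by the root of its likelihood ratio. Differences between knockouts took the mean of both squared errors as variance, assuming equal variance in every group. The same test was also run on simulated data with known differences as a check of the code. The members, gene lists and microRNA families were chosen with earlier results of these data known. Named were all members, the targeted genes, up to 4 genes per list with the smallest adjusted p, the catalytic subunits, and the 3 nearest genes per called member, of which 1 is not reported here. Genes were matched to GENCODE release 29 by symbol (11477) or RefSeq synonym (556), and 723 were not matched. Coordinates are GRCh38, not hg19. Alternatives were a stricter threshold, a size threshold of 0.5, an expression filter or none, centring on the median gene, the larger squared error, another mean for group levels, and an F or t distribution with 8 degrees of freedom. Work used Python 3.11.15, matplotlib 3.10.9, pandas 2.3.3, scipy 1.17.1 and numpy 2.4.6.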

Additional observations from a re-analysis of the deposited data

How the results depend on the processing

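The 2 subunits called in the double knockout against parental were also 2 under every alternative run. At an adjusted p under 0.01, 1 subunit was called in each single knockout against parental and 1 between the ANKRD52 and AGO2 knockouts, and ANKRD44 was lost between the double and AGO2 knockouts, leaving 3 of 4. With a size of at least 0.5 on the log2 scale, 1 was called in each single knockout, 2 between the double and AGO2 knockouts, and 3 of 4 between the double and ANKRD52 knockouts, where PPP6C was lost. With an F distribution 0 were called in each single knockout (2 at an unadjusted p under 0.05), where edgeR's likelihood ratio test called 2. Over all genes the F distribution called 0 in the AGO2 knockout (1834 unadjusted) and 3 in the ANKRD52 knockout. With a t distribution ANKRD44 was also lost between the double and AGO2 knockouts, leaving 3 of 4, and 0 were called between the ANKRD52 and AGO2 knockouts (2 unadjusted), where none of the genes tested passed. Library depth is unknown and the standard errors are approximate. No paired analysis was possible because the deposited tables used here hold no values of single libraries, and no replicate could be left out.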
